A study of Equus caballus with 6 samples.

Results

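The WNT ligand genes WNT4, WNT5A, WNT9A, WNT11 and WNT16, the genes of the secreted WNT regulators SFRP1, SFRP2, FRZB and DKK3, and LEF1, a transcription factor gene of the same pathway, were followed across 6 regions of horse joint tissue. These 10 genes, out of 13602 that could be named on the array, were found by their symbol or full name in the probe descriptions (9 genes) or by gene number alone (SFRP2), and were measured by 21 of 43603 probes. LEF1 is neither a ligand nor a secreted protein and is described last among the members. Of the 10 genes, 7 were well above background on at least 1 array, and WNT5A, WNT9A and WNT16 were above it on none. Among all named genes, 38% were above background on no array.

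Gene expression was measured on 6 single-colour Agilent horse arrays, 1 per region, from cells cut out of 10 µm frozen sections by laser capture. Fetal hindlimbs at day 40 of gestation gave 3 regions. They were 2 layers of the future joint, the intermediate interzone and the outer interzone, and transient cartilage, which models the bones before they ossify. The 3 adult regions came from articular cartilage of the stifle, the horse's knee, at 15 years of age: a superficial layer (outer 10% of the depth), a middle layer (adjacent 20 to 30%) and a deep layer (50 to 90%). The labels name no treatment, strain or genetic change. How many animals were used, and how they map to regions, is not given in the sources used here. Every region had 1 array, so differences carry no p-value and describe these 6 arrays only. RNA of all 6 regions was amplified by SuperAmp, in which cDNA made from mRNA is copied by PCR, and 250 ng of each cDNA was then labelled.

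WNT proteins are secreted, lipid-modified ligands that bind Frizzled receptors on nearby cells. In one branch of the pathway they act with LRP co-receptors to stabilise β-catenin, which then works in the nucleus with LEF1 and related TCF factors. Other branches act without β-catenin on cell polarity and movement. Secreted frizzled-related proteins (SFRP1, SFRP2 and FRZB, also called SFRP3) carry a Frizzled-like domain that binds WNT proteins outside the cell, and most DKK proteins act on the LRP co-receptors. In the developing limb, WNT4, WNT9A and WNT16 are known as genes of the forming joint, and β-catenin signalling there is known to hold back cartilage formation.

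All member probes were 60 bases long, with 35% to 55% G and C against a median of 43.3% over all probes, and none of the 21 shared 20 or more bases with a probe of another gene. The probes below carried the clearest differences or mark how far a value can be trusted. The pair for LEF1 and the reported SFRP1 probe, 1 of 5 for that gene, have capitals for the stretch shared by all probes of that gene. It is 40 bases for LEF1 and 54 bases for SFRP1. The SFRP1 probes are thus near copies and the LEF1 probes overlap in part, so neither set gives independent measurements. The LEF1 probes are named by their first base in the array's transcript, base 850 for the reported probe and base 870 for the other. Sequences are given 5′ to 3′ as deposited in the array files.
WNT11: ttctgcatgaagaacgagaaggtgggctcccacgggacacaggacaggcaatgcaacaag
SFRP1: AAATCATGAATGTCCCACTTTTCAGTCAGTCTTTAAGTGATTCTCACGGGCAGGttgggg
SFRP2: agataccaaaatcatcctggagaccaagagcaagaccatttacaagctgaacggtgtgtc
DKK3: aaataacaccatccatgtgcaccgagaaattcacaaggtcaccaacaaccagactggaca
LEF1 at base 850: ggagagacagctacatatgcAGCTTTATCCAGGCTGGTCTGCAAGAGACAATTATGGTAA
LEF1 at base 870: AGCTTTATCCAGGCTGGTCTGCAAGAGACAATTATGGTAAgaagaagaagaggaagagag

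The arrays differed in how much they could detect. The share of probes well above background, by the scanner software's own flag, was 36.9% to 44.6% on the fetal arrays, 26.4% in adult superficial, 8.4% in adult middle and 10.8% in adult deep cartilage. Of the 10 members, 4 were above it in the intermediate interzone, 6 each in the outer interzone and transient cartilage, 1 each in adult superficial and adult deep, and 0 in adult middle cartilage. Of all named genes, 37.9%, 43.7%, 45.8%, 28.9%, 12.4% and 9.75% were above it on those arrays in the same order. Signals below are the processed signals of the reported probe, in the scanner's own units. Differences are of scaled signal: each array was divided by its 75th percentile over the 1765 probes above background on all 6 arrays, which was 2400, 4390 and 4270 in the intermediate interzone, outer interzone and transient cartilage and 2560, 507 and 891 in adult superficial, middle and deep cartilage. Where 1 side was at background, a lower bound is given as "at least". It was taken against the dimmest signal called well above background on that array for any probe, or against the gene's own signal where that was brighter. Slide 1 carried the 3 fetal arrays and slide 2 the 3 adult ones, so stage and slide cannot be told apart.

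Markers of the labelled tissues were set beside these results. All 11 chondrocyte markers were above background in transient cartilage, 9 in the outer and 7 in the intermediate interzone, with summed scaled signals of 82.5, 5.46 and 2.88. Of the 7 interzone markers, 6 were above it in the intermediate and 7 in the outer interzone against 5 in transient cartilage, with sums of 16.2, 11.4 and 0.229, and GDF5, the defining gene of the interzone, was not above background in transient cartilage. Adult superficial, middle and deep cartilage had 4, 3 and 2 of these markers, PRG4 in each and GDF5 in none, with sums of 34.2, 18.9 and 1.1. The interzone sum thus set the interzones apart from transient cartilage but not from the adult layers. Each adult layer had 5 of the 11 chondrocyte markers, among them ACAN and SOX9, while COL2A1, the main cartilage collagen gene, was above background in none of them. Fibroblast, tendon and perichondrium markers moved with the interzones: 7 of 8 were above background in both, with sums of 42.9 and 30.3, against 5 and 7.58 in transient cartilage, 6 and 3.7 in adult superficial, and 1 or 2 with sums of 0.163 to 0.202 in the other adult layers. TNMD, a tendon marker, was above background on no array. Of the 5 epithelial markers, EPCAM and KRT17 were above background in the outer interzone (sum 0.246) and 0 in the other fetal regions. Skeletal muscle markers numbered 2, 1 and 3 of 6 in the intermediate interzone, outer interzone and transient cartilage (sums of 0.0036 to 0.104), and none of the 6 endothelial markers was above background there. Leukocyte markers numbered 3 of 5 on each fetal array and blood markers 1, 1 and 2 of 4. Both sums were highest in the intermediate interzone. The leukocyte sums were 0.212, 0.0376 and 0.0302 in the intermediate interzone, outer interzone and transient cartilage. The blood sums were 0.199, 0.0147 and 0.0441 in the same order. In adult superficial cartilage, 2 of 4 bone markers, IBSP and SPP1, were above background (sum 1.16), against 1 in middle (0.68) and 0 in deep cartilage, and COL10A1, of hypertrophic cartilage, was above it on no array. The part of these cells in the differences below was not tested.

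**Figure D1:**
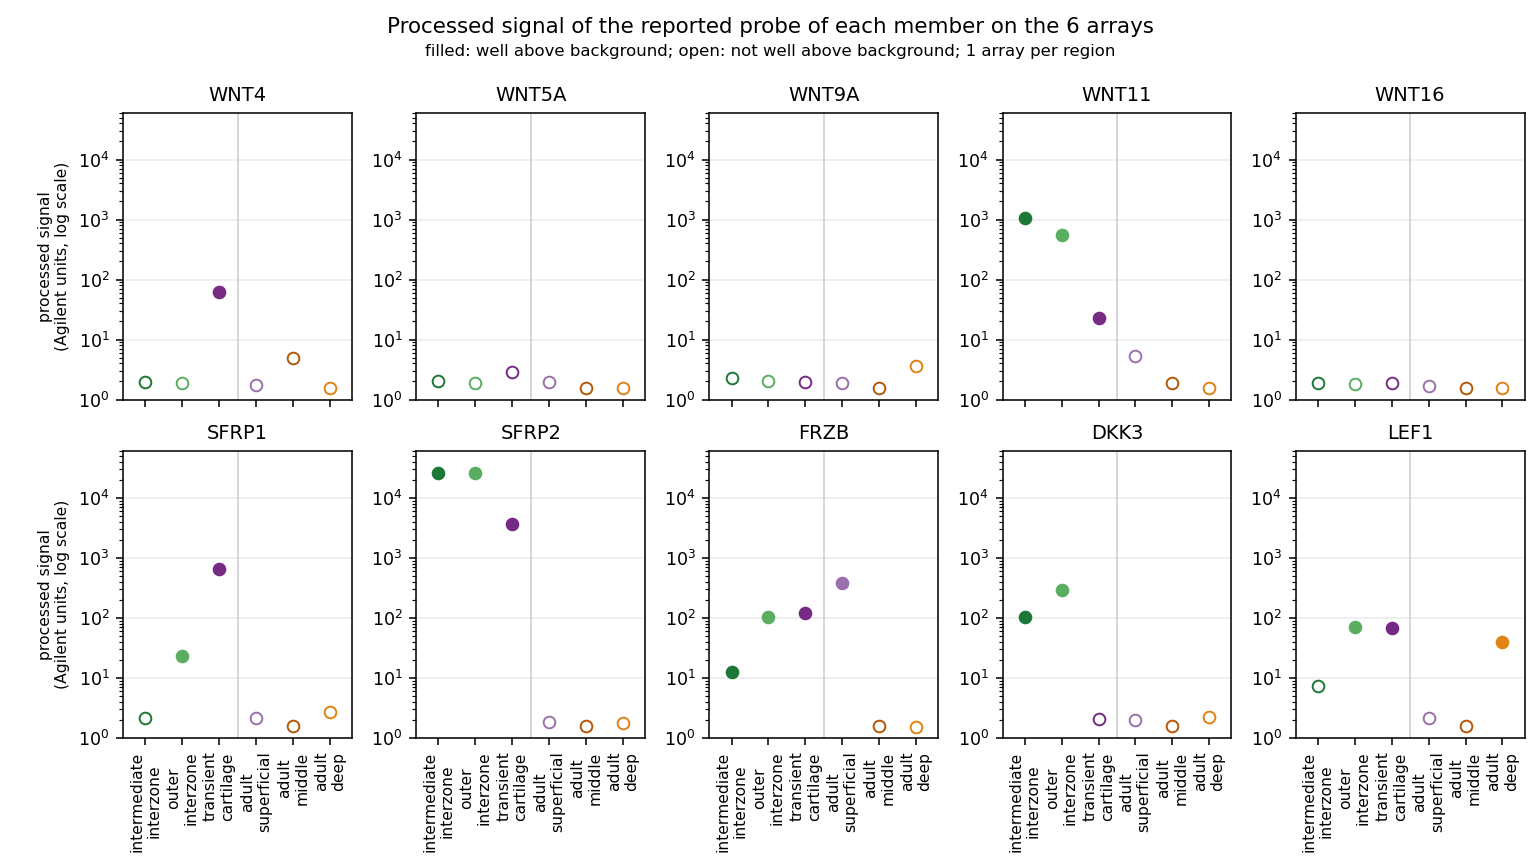
Processed signal of the reported probe of each member (y axis, log scale, scanner units) on the 6 arrays (x axis); filled points were well above background and open points were not, and a grey line parts fetal from adult arrays. WNT11, SFRP2 and DKK3 are highest in the interzones, SFRP1 and WNT4 in transient cartilage, and FRZB and LEF1 are the 2 members with a filled point on an adult array; levels are not comparable between panels.

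WNT11, a ligand mainly known for signalling without β-catenin, was highest in the interzones. Its processed signal was 1070 in the intermediate interzone, 543 in the outer and 23.0 in transient cartilage, all well above background, and 5.22, 1.90 and 1.53 in adult superficial, middle and deep cartilage, all at background. Its order was therefore intermediate interzone, outer interzone, transient cartilage. On the scaled signal it was 82.8-fold higher in the intermediate interzone than in transient cartilage, a log2 difference of 6.37 with a spot error of 0.24. The spot error is the scanner software's estimate for single spots and leaves out variation between animals, dissections and amplifications. The outer interzone was 22.96-fold above transient cartilage (log2 4.52, spot error 0.24). The intermediate interzone exceeded the outer interzone by 3.60-fold (log2 1.85, spot error 0.20), below the 4-fold mark used for counts but over 2 spot errors. In bulk pieces of tissue such as these, more cells with a transcript and more transcript per cell cannot be told apart.

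The sizes of the WNT11 differences depended on the scaling. Over 5 scalings the log2 difference lay between 3.95 and 6.81 for the intermediate interzone and between 2.25 and 4.91 for the outer interzone, both against transient cartilage, and between 1.59 and 2.69 between the interzones. The order of the 3 fetal regions was the same under each of them.

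WNT4, a ligand gene known from the forming joint and from cartilage, was above background in transient cartilage alone. Its 5 probes, which start at neighbouring bases and share 56 of their 60 bases, gave 48.5 to 71.0 there. The reported probe read 61.2 in transient cartilage, against 1.96 in the intermediate and 1.89 in the outer interzone and 1.73, 4.88 and 1.53 in adult superficial, middle and deep cartilage. WNT4 in transient cartilage thus exceeded the intermediate interzone by at least 3.72-fold and the outer interzone by at least 7.03-fold. With the weakest scaling these bounds were 2.03-fold and 2.45-fold, and with normexp correction the first gave no bound. Of all named genes, 5.21% were above background on the transient cartilage array alone.

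The remaining 3 ligands were at background everywhere. WNT5A, a ligand of the branches without β-catenin, read 2.04, 1.89 and 2.90 in the intermediate interzone, outer interzone and transient cartilage and 1.99, 1.58 and 1.53 in adult superficial, middle and deep cartilage. WNT9A, a ligand gene known from joint induction, read 2.25, 2.04 and 1.94 in the fetal and 1.90, 1.58 and 3.57 in the adult regions in the same order. WNT16, another ligand gene of the forming joint, read 1.87, 1.80, 1.91, 1.69, 1.58 and 1.53 on the 6 arrays in that order. Each was measured by 1 probe, and the dimmest signals called well above background on these arrays were 7.65 to 9.24, so lower levels were not detectable. In the horse gene table WNT9A lies next to WNT3A, another ligand gene, which was above background in adult superficial cartilage alone, at 16.4.

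SFRP2 was far above background in all fetal regions and at background in the adult. Its signal was 26100 in the intermediate interzone, 26300 in the outer and 3660 in transient cartilage, and it read 1.82, 1.58 and 1.75, background levels, in adult superficial, middle and deep cartilage. On the scaled signal it was 12.7-fold higher in the intermediate interzone (log2 3.67, spot error 0.20) and 6.99-fold higher in the outer interzone (log2 2.81, spot error 0.20) than in transient cartilage. The interzones differed by 1.82-fold (log2 0.86, spot error 0.20), with the higher scaled level in the intermediate interzone. That last difference was 0.48 to 0.99 over 5 scalings and 0.08 to 0.65 once the median difference of all genes was taken off.

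SFRP1, of the same protein family, ran the other way in the fetal limb. Its signal was 658 in transient cartilage and 23.1 in the outer interzone, while the intermediate interzone, at 2.12, was at background, as were adult superficial, middle and deep cartilage at 2.12, 1.58 and 2.72. All 5 SFRP1 probes, which are near copies of each other, showed this, with 617 to 742 in transient cartilage and 19.0 to 28.3 in the outer interzone. The outer interzone was 29.3-fold lower than transient cartilage (log2 -4.87, spot error 0.24), and the 5 probes gave 26.96- to 33.4-fold with an SD between probes of 0.11 on the log2 scale. For the intermediate interzone the drop from transient cartilage was at least 40.0-fold, or at least 3.41-fold with normexp correction, which adds an offset to every spot. Between the interzones the bound was small, at least 1.37-fold. It was -0.02 on the log2 scale (intermediate minus outer) with quantile normalization and could not be given with normexp. Transient cartilage was thus the fetal region with the highest SFRP1 and the lowest SFRP2 level, each relative to its own probe. Among the fetal regions, the summed signal of the chondrocyte markers was, like SFRP1 and WNT4, highest in transient cartilage (82.5 against 5.46 and 2.88 in the outer and intermediate interzones). The marker sum was higher still in adult deep cartilage, at 115, where SFRP1 and WNT4 were at background. The part of these markers in the differences of SFRP1 and WNT4 was not tested.

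FRZB, a WNT-binding protein gene first known from cartilage, was the member seen on most arrays. Its reported probe read 12.3 in the intermediate and 103 in the outer interzone, 121 in transient cartilage and 384 in adult superficial cartilage, and was at background in adult middle (1.58) and deep (1.53) cartilage. The intermediate interzone was lowest of the 4 regions: it was 5.53-fold below transient cartilage (log2 -2.47, spot error 0.31) and 4.58-fold below the outer interzone (log2 -2.19, spot error 0.31). The outer interzone and transient cartilage were 1.21-fold apart (log2 -0.27, spot error 0.21), within 2 spot errors. Adult superficial was above transient cartilage by 5.29-fold (log2 2.40, spot error 0.21), a difference that also crosses slides and lay between 1.84 and 4.61 on the log2 scale over 5 scalings. The other 2 FRZB probes, which lie farther along another transcript model, were at background on all arrays (1.53 to 3.89).

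The low FRZB level of the intermediate interzone was sensitive to the background correction. With normexp, its difference from transient cartilage was 0.16 and from the outer interzone 0.51, in the opposite direction. Once the median difference of all genes was taken off, it was below zero under each of 5 scalings, at -2.83 to -0.66 against transient cartilage and -2.41 to -0.29 against the outer interzone.

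DKK3, a divergent member of the Dickkopf family, was above background in both interzones and nowhere else. Its single probe read 102 in the intermediate and 295 in the outer interzone, against 2.05 in transient cartilage and 1.97, 1.58 and 2.18 in adult superficial, middle and deep cartilage. Against transient cartilage it was higher by at least 21.5-fold in the intermediate and by at least 33.9-fold in the outer interzone. With the weakest scaling the bounds were at least 4.18-fold and 3.76-fold. Between the interzones the outer was 1.58-fold higher (log2 -0.66 for intermediate minus outer, spot error 0.21), and this turned to 0.15 with normexp. Relative to the median of all genes it was -0.97 to -0.65 over 5 scalings, of which those that differ only by a factor per array give the same value. Of all named genes, 1.9% were above background on exactly the 2 interzone arrays. The fibroblast, tendon and perichondrium markers were likewise higher in the interzones than in transient cartilage (sums of 42.9 and 30.3 against 7.58), and their part in the differences of WNT11, SFRP2 and DKK3 was not tested.

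LEF1, which carries β-catenin's signal to its target genes, was read by the 2 overlapping probes printed above. The probe at base 850 gave 69.0 in the outer interzone, 67.6 in transient cartilage and 39.0 in adult deep cartilage. It was at background in the intermediate interzone (7.26), adult superficial (2.14) and adult middle cartilage (1.58). The probe at base 870 gave 61.1 in transient cartilage and 19.4 in the outer interzone. It read 2.03, 1.75, 1.58 and 1.53, at background, in the intermediate interzone and in adult superficial, middle and deep cartilage.

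The transient cartilage level of LEF1 was therefore shared by both probes, while the adult deep signal came from 1 probe of 2. Between the outer interzone and transient cartilage the reported probe differed by 1.01-fold (log2 -0.01, spot error 0.21) and the other by 3.24-fold, an SD between probes of 1.19 on the log2 scale, so the probes disagree on whether these regions differ. With the authors' values the reported probe's difference turned to 0.37. The intermediate interzone was at least 4.11-fold below transient cartilage and at least 4.08-fold below the outer interzone, or 2.24-fold and 2.01-fold with quantile normalization, and with normexp neither bound could be given. In adult deep cartilage LEF1 was at least 13.6-fold above the superficial and at least 2.82-fold above the middle layer on the reported probe. The first bound was at least 2.69-fold with the mean over both probes. The second was at least 1.69-fold with quantile normalization, and with normexp or the mean over both probes it could not be given. Across slides, the deep layer was 2.77-fold above transient cartilage on that probe (log2 1.47, spot error 0.22), and 1.02 to 4.59 on the log2 scale over 5 scalings.

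**Figure D2:**
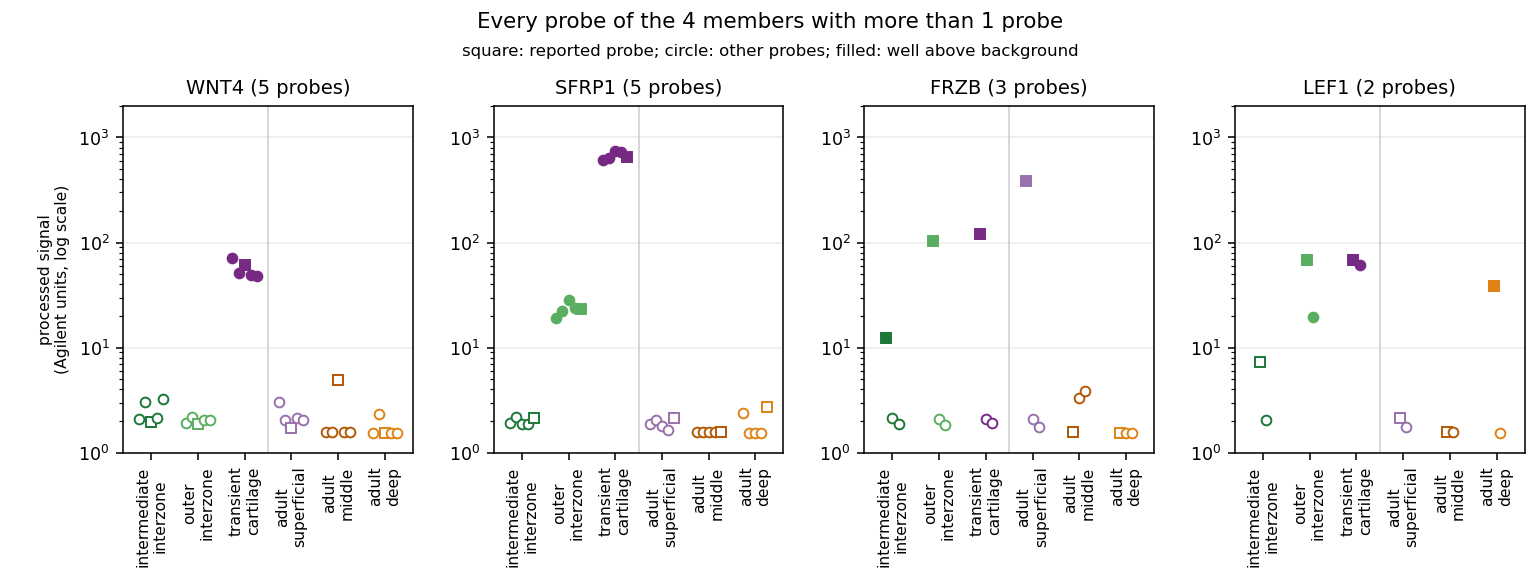
Processed signal (y axis, log scale, scanner units) of every probe of WNT4, SFRP1, FRZB and LEF1 on the 6 arrays (x axis); squares mark the reported probe, circles the others, and filled symbols were well above background. The 5 WNT4 probes (48.5 to 71.0 in transient cartilage) and 5 SFRP1 probes lie close together, but they share 56 and 54 of their 60 bases and are near copies, not independent measurements. FRZB rests on 1 of 3 probes and the LEF1 signal in adult deep cartilage (39.0) on 1 of 2.

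Counted over the members, the intermediate interzone and transient cartilage shared 3 measured genes. WNT11 and SFRP2 passed the 4-fold mark upward in the intermediate interzone, as did 14.9% of 4297 measured genes, and FRZB passed it downward, as did 6.68%. With normexp correction these shares of all genes were 7.49% and 0.908%. DKK3 was seen on the intermediate interzone array alone (11.4% of genes seen on either), and WNT4, SFRP1 and LEF1 in transient cartilage alone (26.6%). The median difference of all measured genes was 0.36 on the log2 scale.

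Between the outer interzone and transient cartilage 5 members were measured on both arrays. WNT11 and SFRP2 passed the 4-fold mark upward in the outer interzone (10.5% of 4786 genes, or 14.2% with the authors' values) and SFRP1 downward (8.34%, or 6% with the authors' values). FRZB and LEF1 were less than 4-fold apart. DKK3 was seen in the outer interzone alone (15%) and WNT4 in transient cartilage alone (18.9%). The median of all genes was 0.08.

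The interzones shared 4 measured members. None passed the 4-fold mark upward in the intermediate interzone (10.9% of 4261 genes, or 8.68% with the authors' values), and FRZB passed it downward (7.28%, or 9.01% with the authors' values). With normexp 8.19% of genes passed it upward and 0.375% downward. SFRP1 and LEF1 were seen in the outer interzone alone (23.9%) and 0 members in the intermediate interzone alone (12.3%). The median of all genes was 0.21. The comparisons against transient cartilage share that array, so its own error enters both.

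**Figure D3:**
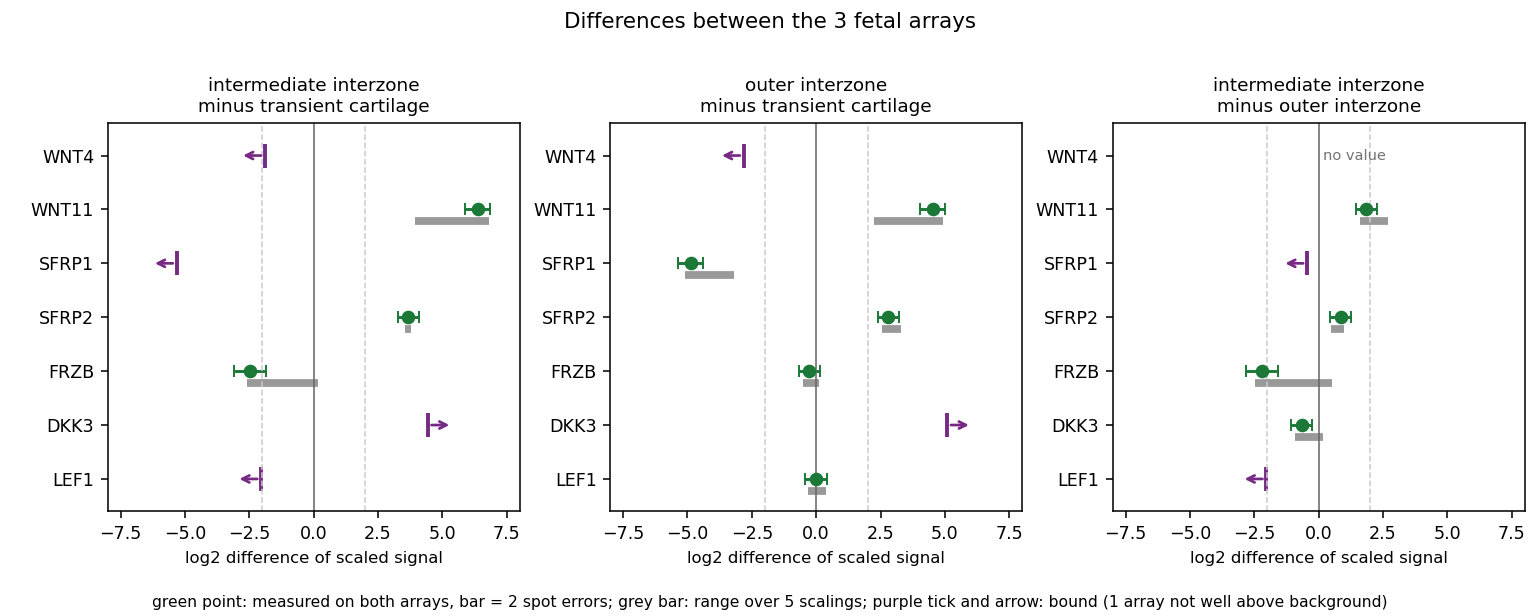
Log2 difference of scaled signal (x axis) for the 7 members seen in fetal tissue, in the 3 comparisons between fetal arrays; green points with bars of 2 spot errors were measured on both arrays, grey bars span 5 scalings, purple ticks with arrows are bounds, and dashed lines mark 4-fold. WNT11 (6.37) and SFRP2 (3.67) lie to the right and SFRP1 to the left against transient cartilage, while the grey bars of FRZB cross 0 in all 3 panels, that of DKK3 between the interzones, and that of LEF1 between the outer interzone and transient cartilage.

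In adult cartilage 2 members were seen, each in 1 layer, so none could be measured on both sides of a comparison. FRZB was above background in the superficial layer alone, at least 17.5-fold above the deep and at least 9.66-fold above the middle layer. Of genes seen in either layer, 61.1% were likewise seen in superficial but not deep, and 68.7% in superficial but not middle cartilage. The FRZB bounds fell to at least 1.56-fold and at least 1.01-fold with quantile normalization, and with the mean over its 3 probes neither could be given. LEF1 was seen in the deep layer alone, as were 9.34% of genes between superficial and deep and 39.1% between middle and deep.

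Of the 7 members seen at all, WNT4, WNT11, SFRP1, SFRP2 and DKK3 were above background in fetal but in no adult region, as were 46% of 8435 genes seen on any array. WNT11 and SFRP2 were above it on all 3 fetal and no adult array, as were 15.7%. SFRP2 was at least 507-fold lower in adult cartilage by the means over regions, and at least 72.1-fold under the weakest scaling. For WNT11 the bound was at least 8.85-fold (log2 -3.15) and rested partly on the intermediate interzone: without that array it was -1.78, and without transient cartilage -4.96. With the 75th percentile of all probes it was -0.44 and with quantile normalization -0.34. Regions are different tissues and not replicates of a stage.

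How far a background reading in adult tissue can be read as a lower level differed by member and layer. The dimmest scaled log2 level called well above background was -8.98 to -8.02 on the fetal arrays, -8.28 in adult superficial, -6.01 in middle and -6.86 in deep cartilage. The scaled SFRP2 level of transient cartilage, its lowest fetal level, was 266-, 55.2- and 99.8-fold above the dimmest level called in adult superficial, middle and deep cartilage. The transient cartilage level of SFRP1 was 47.9-, 9.93- and 17.95-fold above it, and the outer interzone level of DKK3 20.9-, 4.33- and 7.83-fold. Their lower fetal levels left less room. SFRP1 at its outer interzone level was 0.339 and 0.613 times the dimmest call in the middle and deep layers. DKK3 at its intermediate interzone level was 2.74 and 4.95 times it. WNT4 at its transient cartilage level would have been 4.45-fold above the dimmest call in superficial and 1.67-fold in deep cartilage, but 0.923 times that in the middle layer, where it could not have been called. WNT11 at its transient cartilage level, 0.347 and 0.627 times the dimmest call in the middle and deep layers, could not have been called there either. LEF1 at its transient cartilage level was 1.02 times the dimmest call in the middle layer, and FRZB 1.83 times. All these margins are for 1 scaling and were not computed under the others. The others moved the median adult-minus-fetal difference of all genes by up to 2.70 on the log2 scale. The outer interzone margin of DKK3 in the middle layer was 2.11 on that scale, so the smaller margins may not hold under every scaling.

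FRZB was the only member on enough arrays (4) to ask which genes had a like profile. Among 1232 genes above background on exactly those arrays, RNASEH1 (r = 0.9993), WTAP (r = 0.9974) and PQBP1 (r = 0.9969) had the highest Pearson r of scaled log2 signal. These are correlations over 4 points that share their libraries, and the names are a description only. The arrays on which WNT11 and SFRP2 were both seen, the 3 fetal ones, were shared by 9.76% of genes, those of SFRP1 by 3.93%, and those of LEF1 by 0.206%.

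The rest of the pathway was read from a list of WNT genes, of which 89 were on the array, 79 of them not members. Of the 89, 62 were above background somewhere, 27 nowhere and 6 on all arrays, while 38% of all named genes were above it nowhere. Of 16 ligands on the array, 6 were seen, against 13 of 16 secreted regulators, 13 of 17 receptors and co-receptors, 17 of 22 genes of the β-catenin pathway inside the cell, 5 of 8 polarity genes, 6 of 8 target genes and both genes for WNT secretion. By array, 33, 43 and 41 of the 89 were seen in the intermediate interzone, outer interzone and transient cartilage and 26, 10 and 15 in adult superficial, middle and deep cartilage. Of all named genes, 37.9%, 43.7%, 45.8%, 28.9%, 9.75% and 12.4% were seen on these arrays in the same order. The pathway counts thus rose and fell largely with the number of genes of any kind that each array detected.

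**Figure D4:**
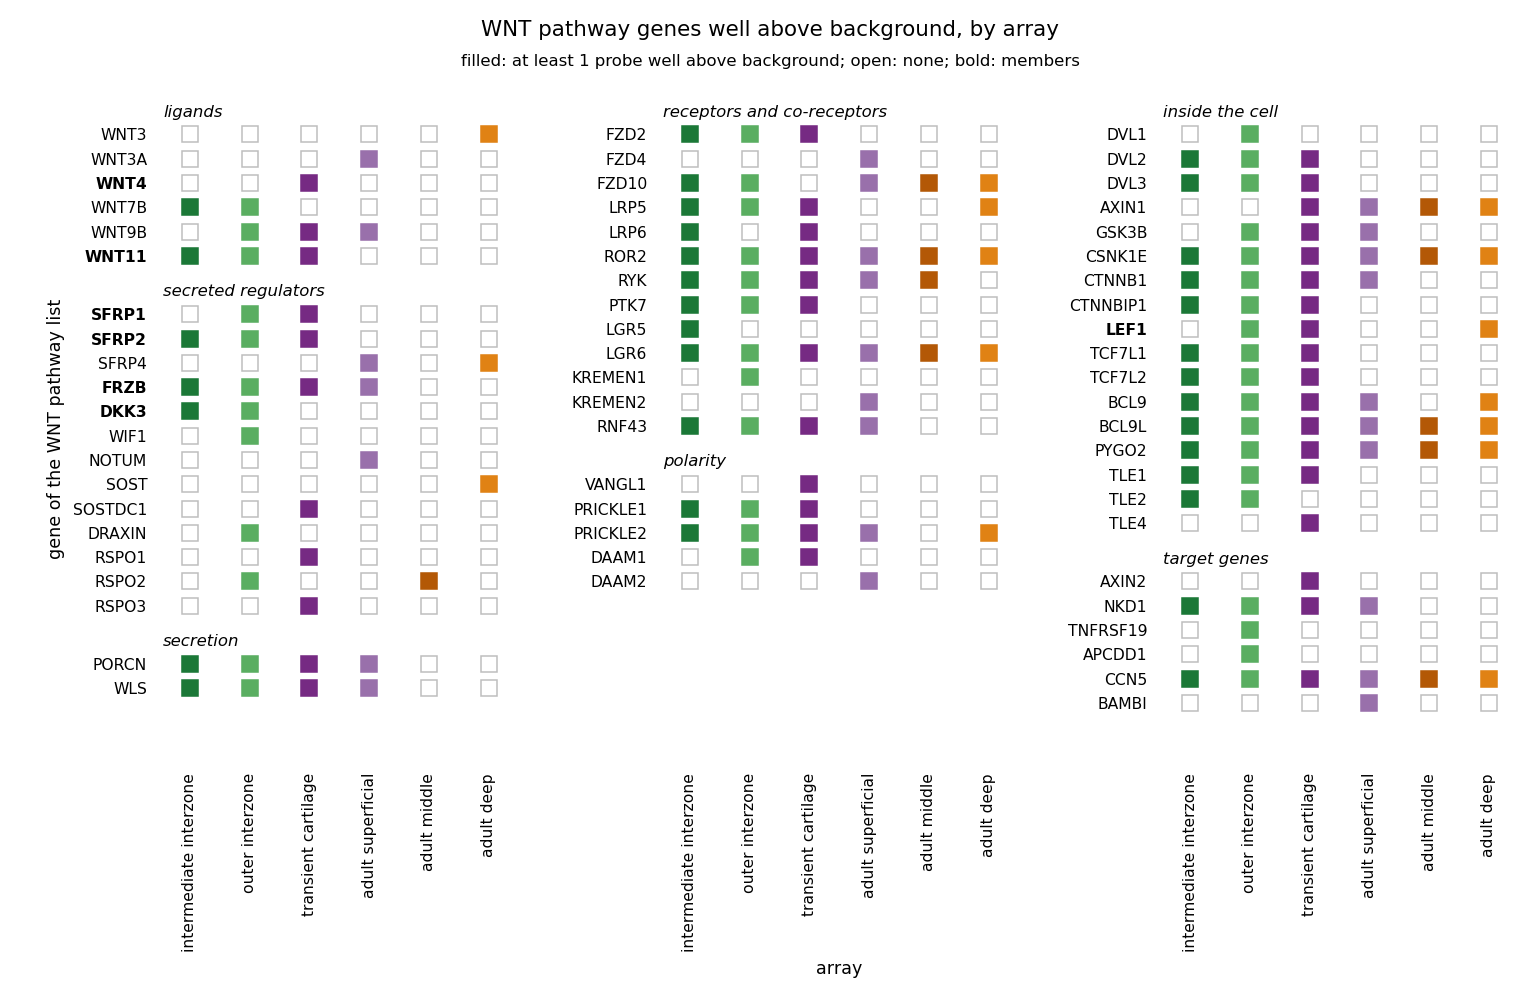
WNT pathway genes (rows, members in bold) above background on at least 1 array, by array (columns) and by role; filled squares mark at least 1 probe well above background. Of 16 ligands on the array 6 appear here, and most receptors and intracellular genes are filled on the fetal arrays. The adult middle column holds the fewest filled squares (10 of 62), and that array also detected the fewest of all named genes (9.75%). The AXIN2 spot of the intermediate interzone was left out as an outlier.

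Other ligands and secreted regulators also differed between the fetal regions. WNT7B read 160 in the intermediate and 61.1 in the outer interzone and 5.63, at background, in transient cartilage, so the intermediate interzone exceeded transient cartilage by at least 33.7-fold. WIF1, a secreted WNT inhibitor, read 340 in the outer interzone and 2.21 and 2.15 in the intermediate interzone and transient cartilage. The outer interzone exceeded transient cartilage by at least 39.1-fold and the intermediate interzone by at least 20.1-fold. SOSTDC1, a secreted WNT and BMP antagonist, read 237 in transient cartilage and 1.93 and 4.17 in the intermediate and outer interzones, a drop of at least 14.4-fold and 27.2-fold. With normexp these bounds shrank. On the log2 scale the WNT7B bound was then 2.45, and SOSTDC1 was at -0.60 for the intermediate and -2.28 for the outer interzone against transient cartilage. WIF1 was at 2.03 for the outer interzone against transient cartilage and -0.69 for the intermediate minus the outer interzone. EPCAM and KRT17, the epithelial markers noted above, were also seen in the outer interzone alone among the fetal arrays, as were WIF1 and KREMEN1, and their part was not tested.

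Among receptors, FZD10 read 82.2 and 255 in the intermediate and outer interzones against 9.01, at background, in transient cartilage, so the bounds were at least 16.2-fold and 27.5-fold. PTK7, a co-receptor of the polarity branch, ran the other way, with 18.2 and 55.3 in the interzones and 716 in transient cartilage (22.1-fold and 13.3-fold lower). The β-catenin co-receptor gene LRP5 was higher in the intermediate interzone than in transient cartilage (7.75-fold) and the outer interzone (9.82-fold). KREMEN1, a DKK receptor gene, read 209 in the outer interzone alone, at least 12.4-fold above the intermediate interzone. LRP6 was at least 19.5-fold lower in the outer interzone than in transient cartilage, and at least 4.37-fold lower there than in the intermediate interzone. LGR5, an R-spondin receptor gene, was seen in the intermediate interzone alone, at least 3.70-fold above the outer interzone. These sizes also depended on the scaling. With normexp, log2 bounds against transient cartilage were 1.84 and 1.67 for FZD10 in the intermediate and outer interzones and -1.82 for LRP6 in the outer interzone, and KREMEN1 was at -0.33 for the intermediate minus the outer interzone. The measured differences from transient cartilage were then -1.77 and -2.85 for PTK7 in the intermediate and outer interzones and 1.90 for LRP5 in the intermediate interzone, where LRP5 was 2.42 above the outer interzone. Between the interzones the bounds were 1.33 for LRP6 and 1.20 for LGR5 with quantile normalization.

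Inside the cell, PYGO2, a β-catenin co-activator gene, was 12.2-fold higher in the intermediate and 17.7-fold higher in the outer interzone than in transient cartilage. DVL3, which relays the Frizzled signal, was 15.9-fold higher in the intermediate interzone than in transient cartilage and 8.60-fold higher than in the outer interzone. Its paralogue DVL2 was 5.01-fold lower than transient cartilage, a difference that turned to 0.43 on the log2 scale with normexp, and 9.75-fold lower than the outer interzone, there -0.21 on the log2 scale with normexp. CTNNBIP1, which blocks β-catenin from TCF factors, was 14.3-fold and 8.11-fold lower in the intermediate interzone than in transient cartilage and the outer interzone, which with normexp were log2 differences of -0.72 and -0.08. Only 1 of the 3 CTNNBIP1 probes was above background on both arrays in each comparison. GSK3B, a kinase that marks β-catenin for breakdown, was at least 27.1-fold lower in the intermediate and 6.46-fold lower in the outer interzone than in transient cartilage. With normexp the log2 values against transient cartilage were 2.14 and 2.19 for PYGO2 and -1.28 and -2.12 for GSK3B in the intermediate and outer interzones, and DVL3 in the intermediate interzone was 2.94 above transient cartilage and 2.68 above the outer interzone. PRICKLE1, a polarity gene, was 4.12-fold lower in the outer interzone than in transient cartilage and 8.26-fold lower than in the intermediate interzone, although its 2 probes gave log2 differences of 1.71 and 3.05 for the latter. With normexp its reported probe gave -1.36 against transient cartilage and 2.38 for the intermediate minus the outer interzone. The target gene AXIN2 was seen in transient cartilage alone (26.1), with its intermediate interzone spot left out as an outlier.

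The 79 other pathway genes were also counted together. Between the intermediate interzone and transient cartilage 25 were measured, of which 5 passed the 4-fold mark upward and 4 downward (14.9% and 6.68% of all measured genes), and the median log2 difference was 0.40 against 0.36 for all genes. Between the outer interzone and transient cartilage it was 26 measured, 1 higher and 4 lower (10.5% and 8.34% of all), with the median -0.16 against 0.08. Between the interzones it was 27 measured, 5 higher and 2 lower in the intermediate interzone (10.9% and 7.28% of all), and the median 0.55 against 0.21. With normexp the lower counts were 0, 2 and 0, and the shares of all measured genes 0.908%, 3.68% and 0.375%.

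Adult cartilage showed more pathway genes in the superficial layer than in the middle or deep layer, as it did genes of any kind. WLS, needed for WNT secretion, read 1620 in the superficial layer and was at background in the middle and deep layers, lower by at least 40.8-fold and 73.7-fold. With normexp these bounds were 2.51 and 3.28 on the log2 scale. For CTNNB1, the β-catenin gene, the superficial layer exceeded the middle by at least 15.5-fold and the deep by at least 28.0-fold, bounds of 0.79 and 1.41 on the log2 scale with quantile normalization. Between superficial and deep cartilage PYGO2 was 7.03-fold lower and PRICKLE2, a polarity gene, 5.10-fold higher in the former, the latter a difference that turned to -0.75 on the log2 scale with quantile normalization. The PYGO2 difference was -1.73 with the authors' values. Other genes were lower in the superficial layer. FZD10 was 5.37-fold and AXIN1, a scaffold of the complex that breaks down β-catenin, 4.37-fold lower than in the middle layer, and RSPO2, an R-spondin gene, at least 6.92-fold lower. SOST, a secreted inhibitor gene, and LRP5 were each at least 4.22-fold lower than in the deep layer. With the authors' values these were, on the log2 scale, -0.48 for FZD10, -0.18 for AXIN1, -0.85 for RSPO2 and -0.99 for both SOST and LRP5. The superficial-minus-middle median of all genes was itself -1.52 with the scaling used here and 0.43 with the authors' values. Before scaling, FZD10 read 41.2 and 43.8 and AXIN1 12.6 and 10.9 in the superficial and middle layers. For FZD10, AXIN1 and PRICKLE2, 1 of 2 probes was above background in both layers compared. Between the middle and deep layers, RYK, a WNT receptor gene, was higher in the middle by at least 6.57-fold, or 1.22 on the log2 scale with normexp, and RSPO2 by at least 2.60-fold, or 0.52 with the authors' values. BCL9, a β-catenin co-activator gene, was higher in the deep layer by at least 1.77-fold. SFRP4, of the same family as SFRP1, SFRP2 and FRZB, read 23.6 in superficial and 27.5 in deep cartilage and was at background in the middle layer, at least 1.99-fold below the deep layer, and in all 3 fetal regions. The BCL9 and SFRP4 bounds were -0.42 and -0.52 (middle minus deep) with quantile normalization, and with normexp neither could be given. Of the 79 other pathway genes, 11 were measured in both superficial and deep cartilage (median -1.15, all genes -0.83), 8 in superficial and middle (-1.88 against -1.52) and 7 in middle and deep (0.56 against 0.80).

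Against the fetal arrays, 9 other pathway genes were seen on all 3 fetal and no adult array, as were 15.7% of all genes seen on any array, and none the other way. TLE1, a co-repressor partner of LEF1 and TCF factors, read 1320, 1750 and 484 in the intermediate interzone, outer interzone and transient cartilage and was at least 38.7-fold lower in adult cartilage, or -2.53 on the log2 scale with normexp. TCF7L1, a relative of LEF1, read 94.0, 441 and 642 and was at least 11.1-fold lower, or -0.29 on the log2 scale with the weakest scaling. The 5 other pathway genes measured on all 6 arrays had a median adult-minus-fetal difference of 1.10 against 0.54 for all genes, and none was 4-fold apart. This count depended on the scaling. With the 75th percentile of all probes and with quantile normalization all 5 were at least 4-fold higher in the adult. So were 77.2% and 61.6% of all measured genes under these scalings. The medians of the 5 genes were then 3.81 and 2.99 against 3.25 and 2.67 for all genes.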

How the data were processed

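Per the file headers, version 10.7.3.1 of Agilent Feature Extraction wrote the deposited scanner files. They hold, per the file headers, a background-subtracted intensity for each spot, called the processed signal, and flags for spots well above background and outliers. The authors' series table was found to be the ratio of that signal to each array's median (log2 correlation at least 0.999998). Of 45220 spots, 1417 controls were left out. Probes were named through the descriptions and a RefSeq gene table (assembly TB-T2T, for names only); 19886 had none. Each gene was reported by its probe with the highest mean log2 signal after scaling. Called means at least 4-fold apart on probes well above background on both sides. Pathway genes were named by size: up to 3 differences and 2 bounds per direction, comparison by comparison. Others, such as WNT3A, SFRP4 and AXIN2, were added after values were seen. Members and lists were chosen with earlier results of these data known. Alternatives were 4 other scalings or corrections (normexp and quantile in limma 3.58.1, R 4.3.3; normexp offset 50), the mean over probes and 2 filters. The code was tested on simulated data. Depth is limited by the number of arrays, 1 per region.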

Additional observations from a re-analysis of the deposited data

How the results depend on the processing

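No paired analysis was possible because each region had 1 array and the result comes from no test, and slide as a block was not run because slide and stage coincide. No member was above background on all 6 arrays, so the filter that asks for this gave no value. The count of members 4-fold or more below transient cartilage in the intermediate interzone went from 1 to 0 with quantile normalization, with normexp and with the mean over probes, and to 4 with no filter. Between the interzones the count lower went from 1 to 0 under the same 3 settings and to 3 with no filter, and the count higher from 0 to 1 with quantile normalization. With no filter, 2 were lower in the outer interzone than in transient cartilage, 1 was higher and 2 were lower in superficial than in deep, 1 and 6 in superficial than in middle, 1 and 1 in middle than in deep cartilage, and 4 were lower in adult than in fetal tissue; values at background entered these, which orders no level. Reversed differences were FRZB with normexp (0.16 against transient cartilage and 0.51 against the outer interzone, for the intermediate interzone), DKK3 with normexp (0.15), and FRZB (0.11) and LEF1 (0.37) with the authors' values for the outer interzone against transient cartilage. With the mean over its 3 probes FRZB was -0.28 and -0.13. In the comparison of stages, leaving out each array in turn left both counts at 0 and moved the SFRP2 bound between -10.06 and -8.23 and the WNT11 bound between -4.96 and -1.78. Of the single differences and bounds recomputed, 114 kept their direction and side of the 4-fold mark, 23 fell below it, 4 passed it and 5 reversed. Part of the 114 could not have changed. Dropping the filter leaves a measured difference as it was, and the mean over probes does so for members with 1 probe. Bounds that could no longer be given were not counted. Scaling moved the median of all genes by up to 0.59 between fetal arrays, 1.95 between adult arrays and 2.70 between stages. Signals near background limit some of these values: FRZB at 12.3 lay close to the dimmest signals called, 7.65 to 9.24.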

Other observations

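Several pathway genes were seen on a single array, and were chosen here after their values were seen. In the outer interzone alone these included TNFRSF19 (199), a WNT target gene, APCDD1 (24.2), a membrane inhibitor of WNT signalling, DVL1 (62.5) and DRAXIN (36.1). In transient cartilage alone they included the R-spondin genes RSPO1 (11.3) and RSPO3 (12.6), whose proteins strengthen WNT signalling, and VANGL1 (12.8), a polarity gene. RSPO2 read 84.2 in the outer interzone and 11.3 in adult middle cartilage, and was not flagged as well above background elsewhere. Its unflagged readings included 12.4 in the intermediate interzone and 9.4 in transient cartilage, so for RSPO2 the split rests on the scanner's flag.

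In adult superficial cartilage alone, BAMBI read 211, DAAM2 186 and the receptor gene FZD4 71.3, with NOTUM, which inactivates WNT proteins, at 8.82. SOST, a secreted WNT inhibitor, was above background in adult deep cartilage alone, at 12.1. WNT9B read 12.3, 18.0 and 12.2 in the outer interzone, transient cartilage and adult superficial cartilage. CCN5, PYGO2, ROR2, LGR6, BCL9L and CSNK1E were above background on all 6 arrays, CSNK1E in adult middle cartilage by a probe other than the reported one.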
